A study of Rattus norvegicus with 2 samples.

Results

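The genes described here are 10 antioxidant and NRF2 target genes, chosen by symbol: Gclc, Gclm, Gsta1, Txn1, Txnrd1, Srxn1, Prdx1, Nqo1, Hmox1 and Fth1. All 10 of 10 were found among the 18256 genes named in either of the study's 2 gene lists. The cells were IEC-6, an established epithelial line from rat small intestine, profiled by single-cell RNA sequencing in 1 library labelled TNF and 1 control library. The treated cells received recombinant rat tumor necrosis factor (TNF), an inflammatory cytokine, at 100 ng/mL for 72 hours in each of 10 cycles, and the control cells received phosphate-buffered saline. Both cultures grew in the same medium with serum and insulin, and cells of both were frozen and thawed before library preparation. The sample titles also begin with different prefixes, so how the cells were prepared and how they were treated cannot be told apart.

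NRF2, the product of Nfe2l2, is a transcription factor that KEAP1 holds at a low level by marking it for degradation. Oxidants and electrophiles modify KEAP1, NRF2 then accumulates, pairs with a small MAF protein and binds antioxidant response elements near its target genes. The targets make glutathione, reduce peroxides through thioredoxin and peroxiredoxins, detoxify quinones and handle heme and iron. The gut lining meets such compounds from food and bacteria.

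Levels below are counts per 1000000 (CPM) of the counts summed over a library's cells, and ratios are TNF-labelled over control. Values in parentheses bound 95% intervals, which cover counting error only. Each group is 1 library, so the differences below have no replicates behind them and carry no p-value. A ratio of at least 2 in either direction and a level of 10 CPM or more in either library served as a fixed size in place of a test. After filtering, 3457 TNF-labelled cells with 14604393 counts (median 3566 per cell) and 5712 control cells with 24207943 counts (median 2902.5) remained. The libraries shared 24 cell barcodes, and leaving those cells out moved no member's ratio by more than 0.425%. Krt8 and Cdh1, keratin and E-cadherin genes of epithelia, were present in both libraries, whereas Epcam and Vil1, further epithelial genes, had 4 counts in each library and 5 and 13 counts. Of the 9 fibroblast and mesenchymal markers found, 4 and 5 reached 10 CPM. Among these were Vim, at 1681 and 2810 CPM, and Col1a1, at 393 and 355 CPM, while Pdgfrb had 1 and 6 counts. Of the 6 endothelial markers, 1 reached 10 CPM, Tek at 127 and 70.5 CPM. Of the 6 white blood cell markers found, 1 reached 10 CPM in either library, Cd14 at 36.9 and 102 CPM, while Ptprc, the pan-leukocyte gene, had 2 and 18 counts. The TNF targets Ccl2 and Cxcl1, chemokine genes, had ratios of 0.0628 and 0.0976, against the direction known for TNF, and Tnfaip3, a feedback inhibitor gene, one of 2.60. Directions are therefore given for the library labelled TNF, not for the treatment. Whether the labels were exchanged was not settled, and an exchange would invert every ratio.

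Promoter windows from 250 bases before to 50 bases after a gene's start were available in RefSeq (build GRCr8) for 7 members in 8 windows, with 2 windows for Txnrd1. The symbol Gsta1 is also a synonym of another RefSeq gene and was not matched, and windows of Fth1 and Hmox1 are not shown. The core of the antioxidant response element, TGACNNNGC on either strand, lay in 3 of the 8 windows, those of Prdx1, Gclm and Txnrd1, and in 12.1% of all 33469 windows of that length. These 3 are shown because their genes did not share a direction between the libraries. The sequences run 5′ to 3′ along the gene, with the core in capitals, each time on the opposite strand. The Prdx1 window is chr5:135383656-135383955 on the plus strand, with the core starting 135 bases before the start site. The Gclm window is chr2:213031885-213032184 on the plus strand, with the core starting 172 bases before it. The Txnrd1 window with a core is chr7:22755855-22756154 on the minus strand, with the core starting 78 bases before it.
Prdx1: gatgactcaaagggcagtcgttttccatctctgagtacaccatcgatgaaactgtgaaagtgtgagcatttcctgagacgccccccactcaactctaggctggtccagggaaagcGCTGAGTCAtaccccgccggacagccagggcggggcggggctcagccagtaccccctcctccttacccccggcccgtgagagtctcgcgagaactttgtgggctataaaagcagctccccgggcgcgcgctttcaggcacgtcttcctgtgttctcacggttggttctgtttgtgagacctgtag
Gclm: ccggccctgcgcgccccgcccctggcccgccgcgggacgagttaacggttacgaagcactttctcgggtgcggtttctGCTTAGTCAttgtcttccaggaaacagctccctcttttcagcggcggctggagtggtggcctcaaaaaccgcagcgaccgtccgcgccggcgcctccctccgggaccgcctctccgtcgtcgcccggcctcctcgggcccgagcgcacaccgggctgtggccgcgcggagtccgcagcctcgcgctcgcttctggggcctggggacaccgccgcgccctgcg
Txnrd1: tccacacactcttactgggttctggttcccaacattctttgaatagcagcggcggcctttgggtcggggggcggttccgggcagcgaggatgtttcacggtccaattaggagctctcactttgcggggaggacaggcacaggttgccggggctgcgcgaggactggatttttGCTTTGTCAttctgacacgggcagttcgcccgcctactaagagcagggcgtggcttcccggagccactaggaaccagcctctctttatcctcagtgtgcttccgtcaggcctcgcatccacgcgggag
The Prdx1 core overlaps a match of TGANTCA, the AP-1 motif. That motif lay in 2 of the 8 windows, those of Prdx1 and Srxn1, and in 7.33% of all windows. A match describes letters only and shows no binding.

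Across the 10 members, 2 (Prdx1 and Gsta1) fell short of their control level by 2-fold or more, 0 exceeded it by 2-fold and 8 lay under 2-fold. The whole counting interval was past 2-fold for both of the lower members and for 5.17% of the genes tested in that direction. Of the 8550 genes tested (10 CPM or more in the higher library), 8.19% were at least 2-fold lower and 5.27% at least 2-fold higher. The median log2 ratio was -0.40 over the members and -0.07 over all genes tested. The counting interval lay wholly below 1 for 7 members and wholly above 1 for 3, but at these depths the same held for 45.5% and 38.4% of all genes tested. Under TMM scaling (trimmed mean of M-values, computed with edgeR) the median over all genes moved to 0.10 and that over the members to -0.24. The members lay 0.33 below all genes in the main scaling and 0.34 below in the other. TMM multiplies every ratio by the same factor, so that offset was bound to stay nearly unchanged. The split of all genes past 2-fold went from 451 higher and 700 lower, 39.2% higher, to 750 higher and 444 lower, 62.8% higher. No member changed direction under any of the 7 scalings and cell selections tried.

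**Figure D1:**
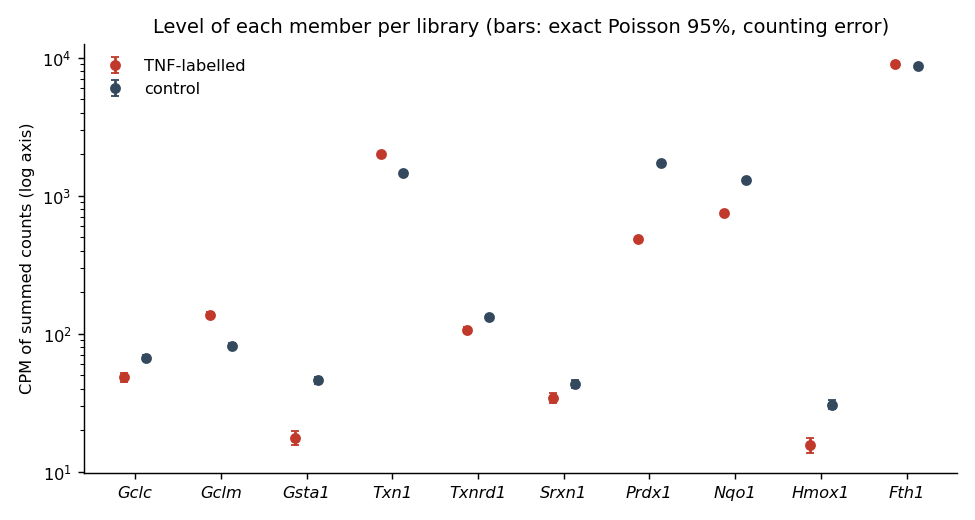
Level of each of the 10 members in CPM of summed counts on a log axis, in the TNF-labelled library (red) and the control library (dark blue), with exact Poisson 95% intervals. Prdx1 stood at 485 CPM against 1731 CPM, and Fth1 at 9013 CPM against 8624 CPM.

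Gclc and Gclm encode the catalytic and the modifier subunit of glutamate-cysteine ligase, the rate-limiting enzyme of glutathione synthesis, and they differed in opposite directions. Gclc (ENSRNOG00000006302) had, with exact Poisson intervals, 48.5 CPM (45.0 to 52.2) in the TNF-labelled library against 66.8 CPM (63.6 to 70.1) in the control library, from 708 and 1617 counts. Its ratio was 0.726 (0.663 to 0.793, exact conditional binomial). Gclm (ENSRNOG00000013409) stood at 137 CPM (131 to 143) and 82.1 CPM (78.6 to 85.8), from 1996 and 1988 counts, a ratio of 1.66 (1.56 to 1.77). Both lay under 2-fold, and 88.6% of the genes tested had a smaller ratio than Gclm. Counts of Gclm per count of Gclc were 2.82 against 1.23, 2.29 times higher (2.06 to 2.55, log-normal approximation). These are read numbers and not subunit proportions, since gene length was not accounted for.

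Gsta1 encodes an alpha-class glutathione transferase, which joins glutathione to electrophiles. It was lower in the TNF-labelled library, at 17.6 CPM (15.5 to 19.9) from 257 counts against 45.9 CPM (43.3 to 48.7) from 1112 counts, a ratio of 0.383 (0.333 to 0.439). Of the genes tested, 3.02% had a smaller ratio. Among cells without a count of the dividing-cell genes Top2a or Mki67, which left 1282 TNF-labelled and 2305 control cells, the ratio was 0.540 and no longer past 2-fold. Alpha-class transferase genes are close copies of one another, so how reads were shared among them is uncertain. The other alpha-class members Gsta5, with 21 and 127 counts, Gsta2, with 0 and 11, and Gsta3, with 0 and 9, stayed under the minimum level, and Gsta4 had a ratio of 0.747 (0.625 to 0.890).

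In the thioredoxin system, Txn1 was higher and Prdx1 much lower in the TNF-labelled library. Txn1 encodes cytosolic thioredoxin, which reduces protein disulfides, and stood at 2012 CPM (1989 to 2035) against 1451 CPM (1436 to 1467), a ratio of 1.39 (1.37 to 1.41). Txnrd1, the reductase that recharges thioredoxin with NADPH, stood at 106 CPM (100.4 to 111) against 133 CPM (128 to 138), a ratio of 0.795 (0.748 to 0.845). Srxn1 encodes sulfiredoxin, which repairs overoxidised peroxiredoxins, and stood at 34.2 CPM (31.2 to 37.3) against 43.2 CPM (40.6 to 45.9), a ratio of 0.791 (0.709 to 0.881). The thioredoxin gene and its reductase gene thus lay on opposite sides of 1.

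Prdx1 encodes a peroxiredoxin, which destroys hydrogen peroxide and is recharged by thioredoxin. Its level was 485 CPM (474 to 496) in TNF-labelled cells and 1731 CPM (1714 to 1747) in the control library, from 7083 and 41894 counts. The ratio of 0.280 (0.273 to 0.287), or 3.57-fold lower, was the smallest of the 10 members, and 1.33% of the genes tested lay below it. Across the 7 scalings and cell selections it ranged from 0.276 to 0.314. Prdx1 counts are uncertain where processed copies of the gene elsewhere in the genome share reads, and no source used here states how such reads were assigned. Other peroxiredoxins did not share the size of the difference. Prdx3, the mitochondrial form, was 2.27-fold lower at 68.6 against 156 CPM, Prdx4 and Prdx6 had ratios of 0.545 and 0.546, and Prdx2 and Prdx5 had ratios of 1.09 and 1.27.

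Nqo1 encodes a quinone reductase much used as a readout of NRF2, and Hmox1 encodes heme oxygenase 1, which opens heme and frees its iron. Nqo1 stood at 755 CPM (741 to 769) against 1301 CPM (1286 to 1315), a ratio of 0.580 (0.568 to 0.593). Hmox1 stood at 15.5 CPM (13.6 to 17.7) against 30.7 CPM (28.5 to 32.9), from 227 and 742 counts, a ratio of 0.507 (0.435 to 0.589). The interval of Hmox1 holds the 2-fold limit, and over the 7 alternatives the ratio ran from 0.495, with cells thinned to 1700 counts, to 0.598, in cells without a Top2a or Mki67 count. Fth1 encodes the ferritin heavy chain, which stores iron, and stood at 9013 CPM (8964 to 9062) against 8624 CPM (8587 to 8661). Its ratio of 1.05 (1.04 to 1.05) was the closest to 1 among the members. Fth1 has processed copies in the genome, so its counts carry the same uncertainty as those of Prdx1.

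The wider antioxidant list held 98 further genes, of which 90 were found and 77 reached the minimum level. Of these 77, 7 passed 2-fold downward and 1 upward, 9.09% and 1.30%, beside 8.19% and 5.27% of all genes tested. Their median log2 ratio of -0.34 lay below the -0.07 of all genes, and 51 of 77 had a ratio below 1, 66.2% beside 53.8% of all genes tested. The list was drawn up with earlier results of these data known, and nothing is called particular to it.

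Among the regulators of NRF2, Nfe2l2 itself stood at 1301 CPM where TNF-labelled and 780 CPM in control cells, with a ratio of 1.67 (1.63 to 1.70). Keap1 was at 11.4 against 16.8 CPM, a ratio of 0.676 (0.561 to 0.812). Bach1, a repressor of Hmox1, was at 4.31 and 3.55 CPM, under the minimum level, with an interval of 0.863 to 1.70 that holds 1. The small MAF genes diverged. Mafk was 2.49-fold lower, at 16.8 against 41.7 CPM, Mafg had a ratio of 0.764 and Maff one of 1.90 (1.70 to 2.11). Cul3, the ligase scaffold that KEAP1 recruits to NRF2, had a ratio of 1.27. Of the 9 regulators tested, 1 was at least 2-fold lower and 0 higher, beside 8.19% and 5.27% of all genes tested.

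The groups around the members follow, beside a background of 8.19% of all genes tested at least 2-fold lower and 5.27% at least 2-fold higher. Of the 10 glutathione synthesis and supply genes tested, Gclc and Gclm included, 0 passed 2-fold, and Gss, glutathione synthetase, was nearest to 1 at 0.951. Of the 8 glutathione peroxidases and glutaredoxins, Gpx8, an endoplasmic reticulum peroxidase, was 3.04 times higher (2.92 to 3.17), at 422 against 139 CPM. Glrx, glutaredoxin, was 2.22-fold lower, and Glrx2 was at 0.997. Among 12 glutathione transferases tested, 11 had a ratio below 1, beside 53.8% of all genes tested, and under TMM scaling 9 did, beside 44.8%. Gstm1, a mu-class enzyme whose close copies may share reads, was 2.07-fold lower beside Gsto1 at 0.943.

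Ugdh, which makes UDP-glucuronic acid for conjugation, was 3.01-fold lower, at 88.9 against 268 CPM, while Akr7a2, an aldehyde reductase, had a ratio of 1.101. Of the genes that supply NADPH, Idh1, cytosolic isocitrate dehydrogenase, was 2.74-fold lower at 53.9 against 148 CPM, and Pgls had a ratio of 0.875. In iron handling, Ncoa4, the receptor that carries ferritin to lysosomes, was 3.63-fold lower, at 19.7 against 71.5 CPM, while Ftl1, the ferritin light chain, had a ratio of 0.886 and Ireb2 one of 1.01. Sod1, cytosolic superoxide dismutase, stood at 1125 against 1669 CPM and Sod2, the mitochondrial form and a known TNF target, at 306 against 258 CPM. In the thioredoxin group Txnrd2 was nearest to 1, at 0.957, and among the metallothioneins the gene the files call Mt1, at 1.14.

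**Figure D2:**
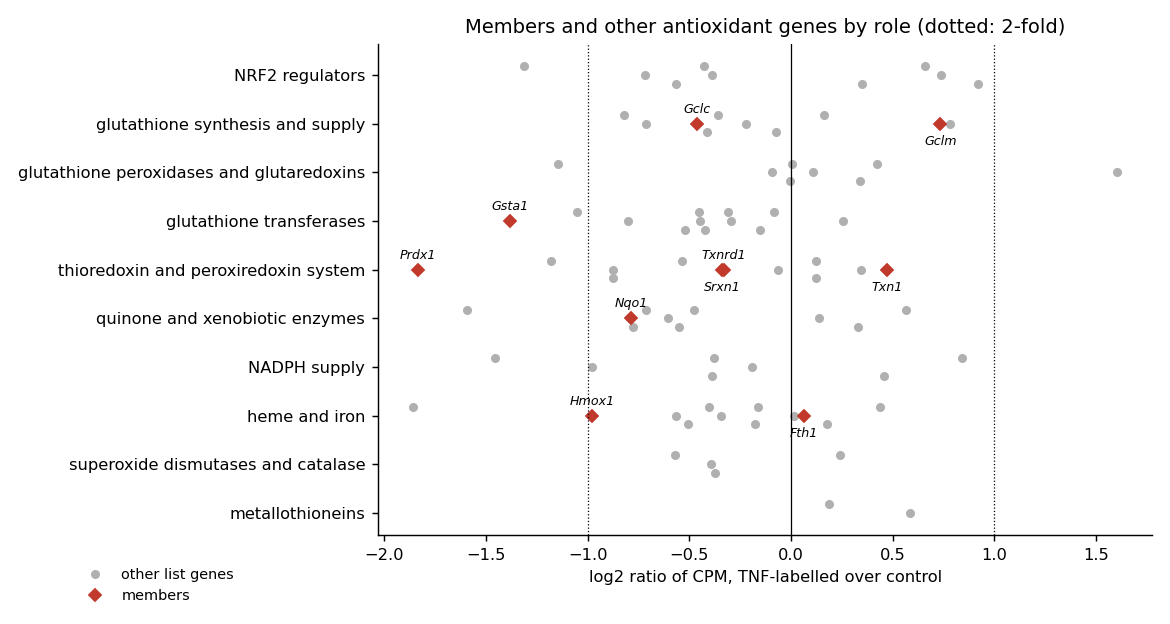
Log2 ratio of CPM, TNF-labelled over control, of the 10 members (red diamonds) and the 77 other list genes tested (grey points), by role, with dotted lines at 2-fold. Prdx1 and Gsta1 lie past the lower line and no member past the upper one, and Gpx8 is the grey point farthest to the right.

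The share of cells with a count of a gene rises with depth, so every cell was thinned to 1700 counts, which left 2728 TNF-labelled and 4753 control cells and left out 729 and 959 shallower ones. The interval of the difference in share lay below 0 for 6 members and above 0 for 2, and held 0 for 2. Over all genes tested, 37.9% lay below 0 and 32.2% above it. No cell type that should lack these genes was found, so the share that free RNA gives was not measured.

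Prdx1 had the largest difference. A count was seen in 54.1% (52.2 to 56.0, exact binomial) of cells in the TNF-labelled library against 92.6% (91.8 to 93.3), a difference of -38.5 percentage points (-40.5 to -36.4). Among the cells with a count, the mean was 1.504 Prdx1 counts against 3.12, so that fewer cells held a count and those cells held fewer. Without thinning the shares were 74.9% and 94.0%, at median depths of 3566 and 2902.5 counts. Nqo1 was counted in 67.8% (66.0 to 69.5) against 85.0% (84.0 to 86.0), a difference of -17.2 points (-19.3 to -15.2), and without thinning in 82.2% and 92.7%.

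Gclm was counted in 18.2% (16.8 to 19.7) of cells in the TNF-labelled library against 11.1% (10.2 to 12.0), a difference of 7.13 points (5.42 to 8.87). Without thinning the shares were 34.8% and 21.4%. For Gclc the shares were 7.37% and 10.2%, a difference of -2.84 points (-4.14 to -1.49), and unthinned 15.6% and 20.7%. Txn1 was counted in 94.4% against 90.3% of cells, a difference of 4.03 points (2.79 to 5.24), and unthinned in 94.8% and 93.6%. The members with the fewest counts were seen in few cells of either library. Gsta1 had shares of 2.82% and 7.03%, Hmox1 of 2.42% and 4.82%, and Srxn1 of 5.83% and 7.01%, with unthinned shares of 6.02% and 13.3%, 6.05% and 11.1%, and 12.3% and 14.7%. The difference for Srxn1 was -1.18 points with an interval of -2.32 to 0.00484. It lay wholly below 0 at 1000 counts (-1.89 to -0.305), at 2900 counts (-4.33 to -0.900) and without thinning (-3.87 to -0.983), where 7 members did. The share of all genes below 0 is not given for these other depths, so that number of members has no background beside it. Txnrd1 lay at 17.0% and 19.9%, a difference of -2.95 points (-4.77 to -1.11), and unthinned at 32.2% and 35.9%. Fth1 was seen in 2726 of 2728 and 4753 of 4753 cells, so its share cannot show a difference.

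**Figure D3:**
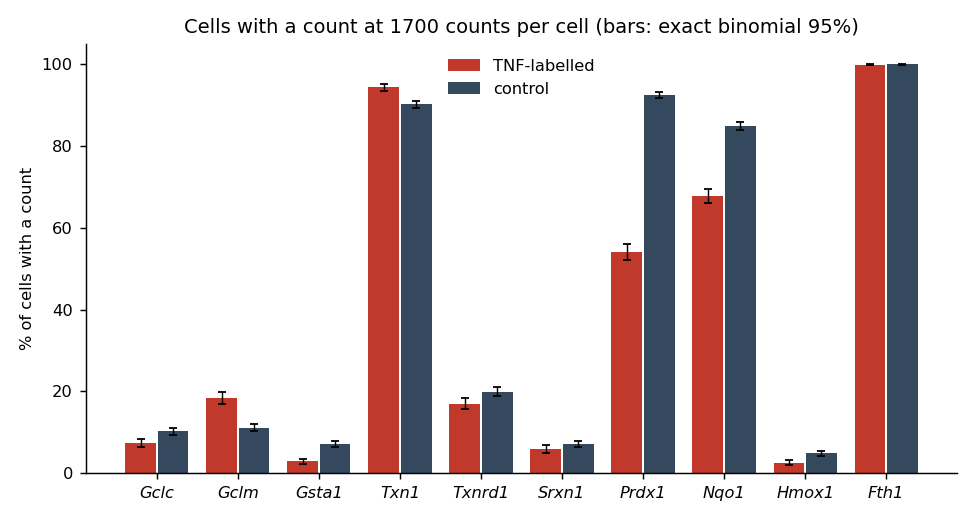
Percent of cells with a count of each member after thinning to 1700 counts per cell, in 2728 TNF-labelled (red) and 4753 control cells (dark blue), with exact binomial 95% intervals. The Prdx1 bars stand at 54.1% and 92.6%, the Gclm bars at 18.2% and 11.1%.

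Fth1 had the largest Fano factor of the 10 members, a measure that can grow with the level. At 1700 counts per cell it ranged from 0 to 135 counts with a median of 14 in TNF-labelled cells, and from 1 to 149 with a median of 13 in control cells. The Fano factor, the variance over the mean, which is 1 for pure counting, was for Fth1 6.62 and 5.63. The median Fano factor of the 3266 genes that reached 50 CPM in each library was 1.06 and 1.05. Nqo1 had Fano factors of 1.46 and 1.65, Gclm of 1.57 and 1.43, and Gclc of 1.245 and 1.21. All were above the 90th percentile of those genes, at 1.236 and 1.17. Txn1 lay above it only in the TNF-labelled library, at 1.36, and Prdx1 only in the control library, at 1.33. Hmox1 and Srxn1 were near pure counting, at 1.01 and 1.01 for Hmox1 and 1.00 and 1.05 for Srxn1.

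Within each library, co-variation of the members was weak. Pearson's r of log(1 + count) over the 2728 and 4753 thinned cells had a median of 0.03 in both libraries over the 45 pairs of members, and of -0.000425 and -0.00022 over all 5331745 pairs of genes with at least 50 CPM. At least 0.1 was reached by 4 of 45 TNF-labelled and 7 of 45 control pairs, beside 0.174% and 0.0487% of all those pairs. The 2 sets of pairs were not matched for level, on which r can depend. Gclc, Gsta1, Srxn1 and Hmox1 lay below 50 CPM in the TNF-labelled library, and Fth1 lay far above it. The points share a library and a fixed depth, and in sparse counts a low r says little. Without thinning the medians were 0.16 and 0.26, values that hold the spread of depth between cells.

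The pairs that reached 0.1 joined a few members, and r is given for TNF-labelled cells before control cells. Fth1 and Nqo1 had an r of 0.19 and 0.22, Fth1 and Gsta1 of 0.13 and 0.18, and Fth1 and Gclm of 0.13 and 0.14. Fth1 and Txn1 were at 0.11 and 0.06. Gclm with Nqo1 was at 0.09 and 0.12, Gsta1 with Nqo1 at 0.08 and 0.11, and Gclm with Gsta1 at 0.08 and 0.12. Cells with both Gclm and Gsta1 were 1.35 and 1.78 times as frequent as the product of their shares, at 0.696% and 1.39% of cells. Gclc, in contrast, had an r of 0.02 with its partner Gclm in both libraries. Hmox1 reached at most 0.03 with any other member in either library.

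Fth1 and Prdx1 had an r of 0.04 among TNF-labelled and 0.21 among control cells. Prdx1 counts per cell also differed, at a mean of 0.814 and 2.88. With the control Prdx1 counts drawn down to 0.809 per cell, r with Fth1 was 0.14, between both values, and r with Nqo1 went from 0.09 to 0.06, beside 0.03 in the TNF-labelled library. The difference in r was not tested.

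Cells were then compared by their Fth1 count, a description chosen after the correlations were seen. In the TNF-labelled library 729 cells held at least 19 Fth1 counts and 811 at most 10, and in the control library 1323 held at least 17 and 1466 at most 10. Nqo1 was 1.57 times higher (1.43 to 1.71) in the Fth1-rich cells of the TNF-labelled library and 1.53 times (1.46 to 1.60) in those of the control library. Gclm was 1.79 times (1.45 to 2.22) and 1.80 times (1.47 to 2.21) higher, and Gsta1 3.80 times (1.96 to 7.94) and 3.20 times (2.38 to 4.34). Prdx1 was at 1.08 (0.961 to 1.20) in the TNF-labelled and 1.35 (1.29 to 1.41) in the control library. Srxn1 was at 0.961 (0.606 to 1.52) in the TNF-labelled and 1.67 (1.26 to 2.22) in the control library. Hmox1 was at 1.67 (0.809 to 3.55) and 1.23 (0.862 to 1.77), both intervals holding 1. Txn1 stayed close to 1 in both, at 1.07 and 1.06, and Txnrd1 at 0.797 (0.628 to 1.01) and 0.929 (0.793 to 1.09). Gclc was at 0.619 (0.428 to 0.888) among TNF-labelled and 1.11 (0.896 to 1.39) among control cells. These intervals treat counts and not libraries as the unit.

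Genes outside the antioxidant list with at least 50 CPM in both libraries were then searched, without ribosomal protein, mitochondrial and identifier-only genes. Adh7, an alcohol dehydrogenase that also oxidises retinol, was the one most like Fth1 and Nqo1 over cells. Its r with Fth1 was 0.35 in the TNF-labelled and 0.26 in the control library, and with Nqo1 0.23 and 0.24. No other gene searched reached 0.2 in both libraries with any member. Adh7 stood at 2026 against 1276 CPM, a ratio of 1.59 (1.56 to 1.61), while Nqo1 had one of 0.580. In the Fth1-rich cells Adh7 was 2.44 times higher (2.31 to 2.57) among TNF-labelled and 1.81 times (1.73 to 1.91) among control cells. Adh7 was picked for its r with Fth1 over the same cells, so these values restate that choice and add no support.

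**Figure D4:**
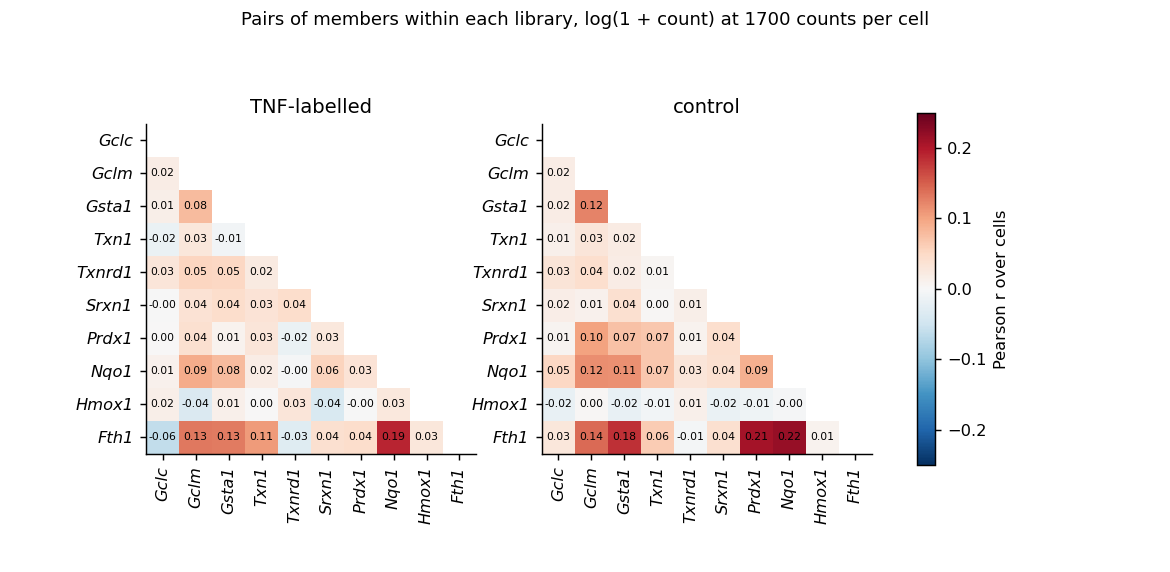
Pearson r over cells for the 45 pairs of members in each library, computed on log(1 + count) at 1700 counts per cell, with colour from blue (negative) to red (positive). The darkest cell of each panel is Fth1 with Nqo1, at 0.19 and 0.22. Fth1 with Prdx1 is pale in the TNF-labelled panel, at 0.04, and dark in the control panel, at 0.21.

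To see where in each culture the members were high or low, cells were clustered within each library without the genes of the antioxidant list. This gave 6 clusters in each library, of which 5 and 6 held at least 50 cells, and they are kept as numbers with their leading genes by fold. In the TNF-labelled library these were cluster 0 (1347 cells, led by Syt1), 1 (1184 cells, Emc9), 2 (588 cells, Top2a), 3 (160 cells, Ccnb1) and 4 (157 cells, Plxna4a). In the control library they were cluster 0 (1518 cells, Sytl3), 1 (1328 cells, Syt1), 2 (1284 cells, Cxcl10), 3 (624 cells, Plk1), 4 (481 cells, Lgals4) and 5 (477 cells, Ocm2). Median counts per cell ran from 2131 to 6261.5 over the TNF-labelled and from 1847 to 5771.5 over the control clusters, and control cluster 0, the shallowest, had a median of 5.76% mitochondrial counts against 2.80% to 3.92% in the others.

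Among the clusters of at least 50 cells, the libraries did not overlap for 4 members, 3 lower and 1 higher in the TNF-labelled clusters. The same held for 19.1% of all genes tested on the lower side and 13.2% on the higher side, genes that, unlike the members, could shape the clusters. Prdx1 lay between 393 and 536 CPM in the TNF-labelled clusters and between 1500 and 2028 CPM in the control clusters, so the closest clusters were still 2.80-fold apart. Nqo1 lay between 506 and 868 CPM (835 to 901) against 897 (856 to 939) and 1577 CPM. Its closest clusters were only 1.03-fold apart, and their counting intervals overlapped. Hmox1 lay between 4.12 CPM, from 3 counts, and 18.9 CPM against 22.4 and 34.7 CPM. With TNF-labelled cluster 5 (21 cells, led by Ifit3) included, Hmox1 overlapped, at 31.2 CPM (6.44 to 91.3) from 3 counts there, and 3 members stayed apart. The share of all genes apart is given only without that cluster. Txn1 lay higher, between 1868 and 2258 CPM against 1288 and 1598 CPM, with the closest clusters 1.17-fold apart. Clusters of 1 library share their source, so this says only that no cluster carried the whole difference.

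For the other members cluster ranges overlapped. Gclm spanned 111 to 154 CPM in the TNF-labelled and 43.9 to 118 CPM in the control clusters, with 1 of 30 cluster pairs placing the TNF-labelled cluster lower. The control values were 118 CPM (107 to 129) in cluster 3, led by Plk1, and 43.9 CPM (35.3 to 54.1) in cluster 5, led by Ocm2. Gsta1 in the control library was at 61.0 CPM (53.9 to 68.9) in cluster 2 and at 14.5 CPM (10.4 to 19.8) in cluster 4, led by Lgals4, the other 4 clusters lying between 43.9 and 50.4 CPM. That Lgals4-led cluster lay within the range of the TNF-labelled clusters, 12.5 to 25.004 CPM. It also had the lowest Fth1 of the control clusters, at 6131 CPM, and the highest Txnrd1, at 169 CPM (154 to 186).

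Control cluster 2, led by Cxcl10, Ifit3 and Cxcl11, genes that interferon induces, had the highest Fth1 of the control library, at 10844.5 CPM, and the highest Nqo1, at 1577 CPM (1540 to 1614). Its Prdx1 level was 1961 CPM, near the highest, 2028 CPM in the Plk1-led cluster 3. In the TNF-labelled clusters of at least 50 cells Fth1 was lowest in the clusters led by Ccnb1 and Top2a, genes of dividing cells, at 6972 and 7820 CPM, and highest at 9744 CPM in the Syt1-led cluster 0. The Ifit3-led cluster 5, with 21 cells, had Fth1 at 10450.8 CPM (9814 to 11118). That interval overlaps the 9666 to 9822 CPM of cluster 0 and leaves out the spread between cells. In cluster 5 Prdx1 was at 385 CPM (271 to 531) and Gclc at 20.8 CPM (2.52 to 75.2), from 37 and 2 counts. The Plxna4a-led cluster 4 had, of the clusters with at least 50 cells, the lowest Nqo1, at 506 CPM (455 to 560), the lowest Prdx1, at 393 CPM (349 to 442), and the lowest Srxn1, at 18.1 CPM (9.62 to 30.9). Among the same clusters Gclc was lowest in cluster 1, at 34.5 CPM (28.3 to 41.6), the shallowest TNF-labelled cluster, and 62.5 CPM (45.6 to 83.6) in cluster 4. The part of depth in these differences was not tested.

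**Figure D5:**
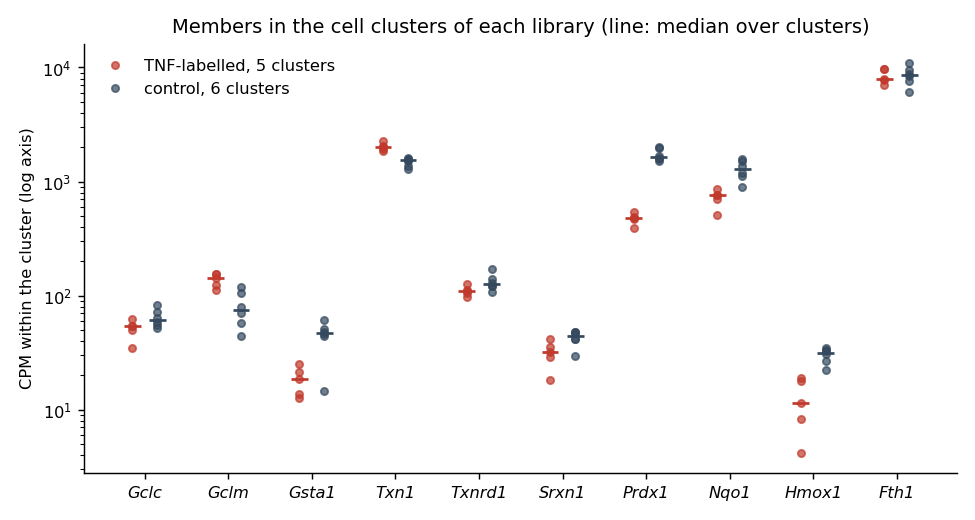
Level of each member in CPM within the 5 TNF-labelled (red) and 6 control clusters (dark blue) of at least 50 cells, on a log axis, with a line at the median over clusters. The ranges are apart for Prdx1, Nqo1, Hmox1 and Txn1, as for 19.1% (lower) and 13.2% (higher) of all genes tested, and overlap for the other members. For Nqo1 and Hmox1 the counting intervals of the closest clusters overlap.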

How the data were processed

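The files deposited by the authors hold raw counts of genes by cells, 1 matrix a library, beside lists of genes and barcodes. Rnor_5.0 is the build per the submitters' processing notes. No source used here names the aligner, counter, annotation, cell calling or use of molecular identifiers, and intervals cover counting error only. The members and lists were chosen with earlier results of these data known. Barcodes had to reach 500 counts and 300 genes with no more than 20% mitochondrial counts, which kept 3457 of 3457 and 5712 of 5713 barcodes. Doublets were neither called nor removed. A gene missing from 1 list counted as 0 there, and a library under 3 counts entered a ratio at 3 counts. Levels have exact Poisson, ratios exact conditional binomial and shares Clopper-Pearson intervals, and the difference of shares combines the latter. Clusters were made per library from 2000 variable genes (scanpy 1.11.5), 30 principal components, 15 neighbours and Leiden resolution 0.5 (leidenalg 0.10.2). TMM factors came from edgeR 4.0.16, and arithmetic from Python 3.11.15 with scipy 1.17.1. The computations were tested on simulated data. The searches for leading and co-varying genes left out ribosomal protein, mitochondrial, identifier-only and list genes, and co-varying genes needed 50 CPM in both libraries. Genes named are the members, each list gene past 2-fold, the gene nearest a ratio of 1 in each role group, Nfe2l2, Keap1 and Bach1. Also named are each cluster's leading genes and any gene searched with r of at least 0.2 with a member in both libraries. Others (Ccl2, Cxcl1, Tnfaip3, cell type markers and Ftl1, Sod1, Mafg, Maff and family members beside a member) were added after values were seen. Gene names are those of the files, and promoters are RefSeq's in GRCr8, another build, joined by symbol only.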

Additional observations from a re-analysis of the deposited data

How the results depend on the processing

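With 1 library per group no library could be left out. No paired analysis was possible because each group holds 1 library, so the groups share fewer than 2 replicate numbers. TMM scaling gave a median log2 ratio of -0.24 over the members and 0.10, above 0, over all genes, with 444 genes at least 2-fold lower and 750 higher. Among cells without a Top2a or Mki67 count 1 member, Prdx1, was at least 2-fold lower, beside 775 of all genes. With cells thinned to 1700 counts there were 3 such members, Hmox1 included, beside 736 of all genes. With a minimum of 3 counts, 2 members were lower and 0 higher, beside 2553 genes lower and 979 higher. The number of genes tested is not given for the cell selections or the 3-count minimum. Their gene counts therefore yield no share to set beside the members. At a size of 1.5-fold, 4 of 10 members and 1896 of the 8550 genes tested were lower, and 1 member and 1419 genes higher. The median r of member pairs was 0.16 (TNF-labelled) and 0.26 (control) without thinning, 0.0128 in TNF-labelled cells without a Top2a or Mki67 count, and 0.0494 in control cells at 2900 counts. The median over members of the highest over the lowest cluster was 1.56 and 1.60, and went to 1.24 and 1.13 at Leiden resolution 0.25 and to 1.83 and 1.81 at resolution 1.0, with fewer and more clusters. In the drawn-down control counts r of Prdx1 and Hmox1 was 0.0048 in place of -0.01, both near 0. The causes were not tested. Leaving out shared barcodes and drawing down Prdx1 were added after seeing the data. Depth limits Hmox1, Gsta1 and Srxn1 most, with 227 to 499 counts in the TNF-labelled library.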
